A study of Mus musculus with 24 samples.

Results

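Expression of 8 genes of monocyte recruitment was followed in mouse ear skin: the chemokine ligands Ccl2, Ccl7, Ccl12, Ccl8, Ccl3 and Ccl4 and the receptors Ccr1 and Ccr2. The rule is this list of names and uses no measured value, though the names were put together with earlier results of these data known; all 8 were found among the 51912 genes of the count table. RNA from whole ears of C57BL/6 mice was sequenced in 24 libraries, in 4 groups of 6. The mutant groups carried a conditional Card14 allele, a knock-in that holds the E138A change behind a stop cassette and makes the changed protein from the gene's own locus once CreERT2, a Cre recombinase that needs tamoxifen, removes the cassette. Wild-type and mutant mice alike received tamoxifen by intraperitoneal injection, once daily on 3 days in a row. Ears were taken 5 days or 1 month after the first injection, giving the groups wild type at day 5, mutant at day 5, wild type at 1 month and mutant at 1 month. The promoter that drives CreERT2, the presence of CreERT2 in the wild types and the age of the animals are not stated in the labels. Nor do they say that the libraries of a group came from separate animals, so p-values measure only the spread between these libraries, which may be technical.

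Chemokines are small secreted proteins that direct the movement of white blood cells through receptors on the cell surface. CCL2, CCL7 and CCL12 are ligands of CCR2, the receptor by which inflammatory monocytes leave the bone marrow and enter tissue. Mouse CCL8 belongs to the same family of monocyte chemoattractant proteins and acts through CCR8. CCL3 is a ligand of CCR1, a receptor of monocytes and neutrophils, and CCL4 is a close relative of CCL3. In skin, CARD14 is found mainly in keratinocytes, where it links upstream signals to NF-kB, a transcription factor that switches on many chemokine genes.

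The genes lie in groups on the mouse genome (GRCm38, GENCODE M21 gene models). Ccl2 (ENSMUSG00000035385) runs from 82035571 to 82037453 on the plus strand of chromosome 11. Ccl7 (ENSMUSG00000035373, 82045712 to 82047525), Ccl12 (ENSMUSG00000035352, 82101845 to 82103400) and Ccl8 (ENSMUSG00000009185, 82115185 to 82116799) follow on the same strand, so that these 4 genes span 81.2 kb, with the eotaxin gene Ccl11 between Ccl7 and Ccl12. Ccl3 (ENSMUSG00000000982, 83647844 to 83649355, minus strand) and Ccl4 (ENSMUSG00000018930, 83662584 to 83664683, plus strand) form a separate pair of 16.8 kb on chromosome 11. Ccr1 (ENSMUSG00000025804, 123962124 to 123968692, minus strand) and Ccr2 (ENSMUSG00000049103, 124101950 to 124113557, plus strand) lie within 151 kb on chromosome 9, with Ccr3 between them. Reads were at least 75 bases long. No stretch of 75 bases was shared among the transcripts of the 8 genes. The estimated counts of Ccr2 were not whole in 23 of 24 libraries, and those of the other 7 genes were whole in all, so the level of Ccr2 is the less certain one.

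The 250 bases before the transcription start were matched in the RefSeq promoter table (GRCm38.p6) for 5 of the 8 genes, Ccl3, Ccl8, Ccl12, Ccr1 and Ccr2, and not for Ccl2, Ccl4 and Ccl7. These windows were searched on both strands for the NF-kB consensus, for TATAAA, the core of a TATA box, and for TGANTCA, the AP-1 site. The 3 windows with a match are shown 5′ to 3′ on the gene's own strand with the match in capitals, because they belong to neighbouring ligand genes with different time courses (Ccl12, plus strand, chr11:82101595-82101844, and Ccl8, plus strand, chr11:82114935-82115184) and to a receptor gene with a large genotype difference (Ccr1, minus strand, chr9:123968693-123968942).
Ccl12: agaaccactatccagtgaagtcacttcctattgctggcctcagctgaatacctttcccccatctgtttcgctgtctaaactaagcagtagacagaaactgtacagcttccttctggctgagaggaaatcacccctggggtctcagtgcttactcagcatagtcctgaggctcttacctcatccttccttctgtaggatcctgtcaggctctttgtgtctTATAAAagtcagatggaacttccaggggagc
Ccl8: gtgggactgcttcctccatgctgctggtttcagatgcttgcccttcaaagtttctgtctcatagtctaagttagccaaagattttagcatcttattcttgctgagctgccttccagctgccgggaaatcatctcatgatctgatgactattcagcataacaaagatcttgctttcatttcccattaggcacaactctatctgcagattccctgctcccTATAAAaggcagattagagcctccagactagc
Ccr1: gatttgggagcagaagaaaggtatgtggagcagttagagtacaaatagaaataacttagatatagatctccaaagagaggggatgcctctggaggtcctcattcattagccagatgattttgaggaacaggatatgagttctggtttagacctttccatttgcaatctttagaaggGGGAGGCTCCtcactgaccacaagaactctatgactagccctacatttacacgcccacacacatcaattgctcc
The capitals mark TATAAA 31 bases before the start of Ccl12 and 32 bases before that of Ccl8. In Ccr1 they mark a match to the NF-kB consensus 74 bases before the start. It reads as a match on both strands, as every match does, because the pattern searched is its own reverse complement. Aligned to each other, the Ccl12 and Ccl8 windows were identical at 150 of 270 columns (55.6%), against 43.5% to 50.4% for the other pairs among the 5 windows. Among all 32851 promoter windows of this length, 12.4% held TATAAA, 9.55% the NF-kB consensus and 6.75% TGANTCA. No match to any of the 3 was found in the windows of Ccl3 and Ccr2. The Ccr2 window (plus strand, chr9:124101933-124102182) lies mostly inside the GENCODE gene model, which starts at 124101950. A match describes the letters only.

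The libraries held 15661515 to 23904976 assigned reads, and 17287 genes were tested. Card14 itself, the targeted gene, was at a median of 48.5 counts per 1000000 (CPM, after TMM scaling) in wild type and 44.5 in mutant ears at day 5, and at 37.5 and 13.0 CPM at 1 month. Its transcript level does not check the single changed codon. All 8 defining markers of whole ear (keratinocyte, fibroblast, cartilage, muscle, vessel and leukocyte genes) were detected in every group. The 1-month libraries fell apart by base composition: the correlation between a library's deviations from the mean of all libraries and the GC content of the transcripts ranged from -0.353 to 0.537, against -0.305 to 0.019 at day 5. It exceeded 0.2 in 6 libraries, 3 wild type and 3 mutant, all at 1 month, so the genotype differences at 1 month are also given within the 2 sides.

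At day 5 the transcripts of all 8 genes were higher in mutant than in wild-type ears, from 3.71-fold for Ccr2 to 29.2-fold for Ccl2 (edgeR's quasi-likelihood test with Benjamini-Hochberg adjustment at 0.05, over all genes tested). Of all genes tested, 20.7% were called higher in this comparison. The median log2 fold change of the 8 genes was 4.15, against -0.02 for all genes tested. The libraries of the genotypes did not overlap for 7 of the 8 genes, a separation that 17.9% of all genes showed in that direction. Whether a change in whole ear came from the number of cells of a type or from the RNA per cell cannot be told apart in bulk libraries.

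Among the CCR2 ligands, Ccl2, the founding monocyte chemoattractant, had the largest fold change. Its level in wild-type ears at day 5 was 1.62 CPM at the lowest, 2.15 at the median and 3.21 at the highest, and in mutant ears 33.2, 65.7 and 95.6 CPM. The lowest mutant library thus stood well above the highest wild-type library, and the log2 fold change was 4.87 ± 0.34 (SE, n = 6 per group, edgeR adjusted p = 3.79e-10). Ccl7, which signals through several CC receptors besides CCR2, had 2.81, 4.20 and 4.87 CPM in wild type and 51.7, 94.4 and 126 CPM in mutants. All mutant libraries again lay above all wild-type libraries. On the log2 scale Ccl7 was higher by 4.55 ± 0.30 (edgeR adjusted p = 1.35e-10). Ccl12, a CCR2 ligand of rodents, rose from 0.816, 1.07 and 1.81 CPM to 7.24, 18.7 and 23.7 CPM. The log2 fold change reached 3.81 ± 0.31 (edgeR adjusted p = 3.26e-09). No library of one genotype fell within the range of the other.

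Per kilobase of transcript, Ccl8 was the most abundant of the 6 ligands in wild-type ears, at 32.6 CPM per kb at day 5. Wild-type libraries at day 5 held 13.9 CPM at the lowest, 16.0 at the median and 19.9 at the highest. Mutant libraries held 42.2, 65.8 and 132 CPM. The ranges were apart, and the difference, 2.13 ± 0.31 on the log2 scale (edgeR adjusted p = 9.11e-06), was the smallest among the 6 ligands.

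Ccl3 and Ccl4, which encode macrophage inflammatory proteins, were rare transcripts in wild-type ears. Ccl3 lay at 0.0578, 0.254 and 0.604 CPM (lowest, median and highest) in wild type and at 0.356, 5.07 and 6.59 CPM in mutants at day 5. The lowest mutant library, replicate 1, lay within the wild-type range, and the others lay above it. The log2 fold change was 3.79 ± 0.75 (edgeR adjusted p = 0.000303). Ccl4 was at 0 in 2 of the 6 wild-type libraries, and the group held 8 counts in all. Its wild-type values were 0, 0.0600 and 0.231 CPM and its mutant values 0.415, 2.19 and 3.31 CPM. Mutant libraries were all higher, and the fitted difference was 4.48 ± 0.86 on the log2 scale (edgeR adjusted p = 0.00021). That size rests on few wild-type counts and was 5.14 without wild-type replicate 1.

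Both receptors rose at day 5, Ccr1 by more than Ccr2. Ccr1 had 0.849, 1.92 and 2.42 CPM in wild type and 9.73, 59.5 and 73.6 CPM in mutants. The log2 fold change was 4.76 ± 0.47 (edgeR adjusted p = 5.04e-08), with the genotypes apart. Ccr2 had 16.2, 19.0 and 25.0 CPM in wild type and 35.5, 85.1 and 102 CPM in mutants. Here too no mutant library reached down to the wild-type range, and the log2 fold change was 1.89 ± 0.46 (edgeR adjusted p = 0.00201).

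The mutant libraries of day 5 differed among themselves. Replicates 1 and 3 were the lowest for every one of the 8 genes. For Ccr1 they lay at 9.73 and 15.0 CPM, against 57.8 to 73.6 CPM in the other 4 libraries. For Ccr2 they lay at 35.5 and 43.2 CPM, against 81.8 to 102 CPM. Even these 2 libraries lay above every wild-type library for both receptors. All 8 genes were also called higher when any single library was left out.

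**Figure D1:**
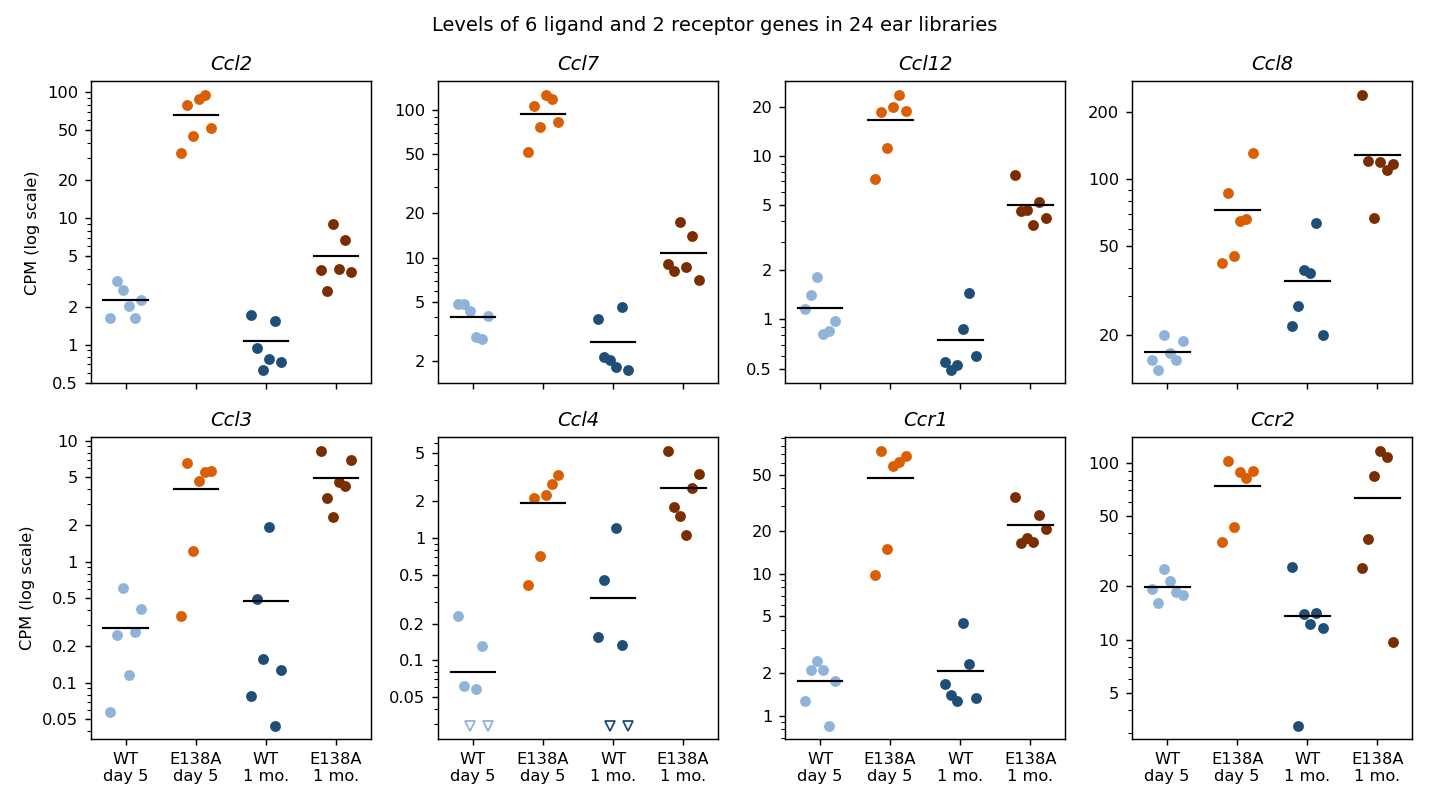
Level of each of the 8 genes in every library, in CPM on a log axis, by group; each point is 1 library, the black line is the group mean, and open triangles at the lower edge are libraries with 0 counts. Mutant points lie above wild-type points at both times, apart from the overlaps of Ccl3 at day 5 and of Ccl4 and Ccr2 at 1 month, and the mutant points of Ccl2 and Ccl7 are lower at 1 month than at day 5.

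At 1 month all 8 genes were still higher in mutant ears, from 3.70-fold for Ccl8 to 10.6-fold for Ccl3 and Ccr1. Of all genes tested, 25.5% were called higher. The median log2 fold change of the 8 genes was 2.48, against 0.05 for all genes. Libraries of the genotypes did not overlap for 6 of the 8 genes, against 12.2% of all genes in that direction. Ccl4 and Ccr2 overlapped.

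The CCR2 ligands remained above wild type, at lower levels. Ccl2 had 0.632, 0.860 and 1.72 CPM (lowest, median and highest) in wild type and 2.67, 3.93 and 9.04 CPM in mutants at 1 month. The ranges were close but apart, and the log2 fold change was 2.22 ± 0.33 (edgeR adjusted p = 7.04e-06). Ccl7 had 1.75, 2.09 and 4.64 CPM in wild type and 7.10, 8.87 and 17.4 CPM in mutants, again without overlap. Its log2 fold change was 1.98 ± 0.28 (edgeR adjusted p = 3.26e-06). Ccl12 had 0.493, 0.573 and 1.46 CPM in wild type and 3.79, 4.64 and 7.70 CPM in mutants, which left the largest relative gap of the 3 genes. The log2 fold change of Ccl12 was 2.74 ± 0.31 (edgeR adjusted p = 1.53e-07).

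Ccl8 stood at 20.01, 32.4 and 63.7 CPM in wild type and at 67.1, 118 and 240 CPM in mutants at 1 month. The highest wild-type library came within a few CPM of the lowest mutant library. The log2 fold change was 1.89 ± 0.31 (edgeR adjusted p = 1.89e-05).

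Ccl3 and Ccl4 stayed rare in wild-type ears at 1 month, apart from 1 library. Ccl3 had 0.0442, 0.143 and 1.94 CPM in wild type and 2.34, 4.42 and 8.28 CPM in mutants, without overlap. The log2 difference was 3.40 ± 0.69 (edgeR adjusted p = 0.000253). Ccl4 had 0, 0.145 and 1.21 CPM in wild type, with 2 libraries at 0 and 43 counts in the group, and 1.06, 2.20 and 5.21 CPM in mutants, so that the highest wild-type library lay within the mutant range. Its log2 fold change was 2.98 ± 0.67 (edgeR adjusted p = 0.000776). The highest wild-type value of both genes, and of Ccr1, came from replicate 4. Without that library the log2 fold changes were 4.72 for Ccl3, 4.01 for Ccl4 and 3.78 for Ccr1, all still called by edgeR.

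Ccr1 was at 1.26, 1.54 and 4.50 CPM in wild type and at 16.5, 19.4 and 34.6 CPM in mutants at 1 month. The mutant libraries were all higher, and the log2 fold change was 3.41 ± 0.44 (edgeR adjusted p = 1.07e-06). Ccr2 ranged widely in both genotypes, with 3.28, 13.2 and 25.8 CPM in wild type and 9.68, 60.3 and 117 CPM in mutants. Its log2 fold change was 2.22 ± 0.47 (edgeR adjusted p = 0.000367), the only one among the receptors with overlapping libraries.

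The spread of Ccr2 at 1 month followed the base composition of the libraries. Its 3 mutant libraries with a GC correlation above 0.2 held 9.68 to 37.1 CPM, and the 3 below held 83.5 to 117 CPM. Among wild types the 3 libraries above held 3.28 to 14.2 CPM and the 3 below 11.7 to 25.8 CPM, with an overlap. The genotype difference was present on both sides, with log2 fold changes of 1.26 ± 0.47 (edgeR adjusted p = 0.0367) among libraries above and 2.56 ± 0.36 (edgeR adjusted p = 2.41e-05) among those below. The ranges of Ccr1 overlapped between the sides: its mutant libraries held 16.5 to 34.6 CPM above and 16.8 to 26.0 CPM below. The transcripts of both receptors have a low GC content, 39.1% for Ccr1 and 39.4% for Ccr2. The genotype difference was more than 1.5-fold smaller among libraries above 0.2 than among those below for 6 of the 8 genes, Ccr2 among them. Ccl2 had log2 fold changes of 1.63 above and 2.62 below, and Ccl7 had 1.48 and 2.36. The values were 2.90 and 4.89 for Ccl3, 2.51 and 4.73 for Ccl4, and 3.12 and 3.80 for Ccr1. Ccl12 (2.53 and 3.00) and Ccl8 (1.89 and 1.87) moved by less. All 8 genes were called higher by edgeR on both sides, and the difference between the sides was not itself tested. The part of library composition in these values was not tested.

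**Figure D2:**
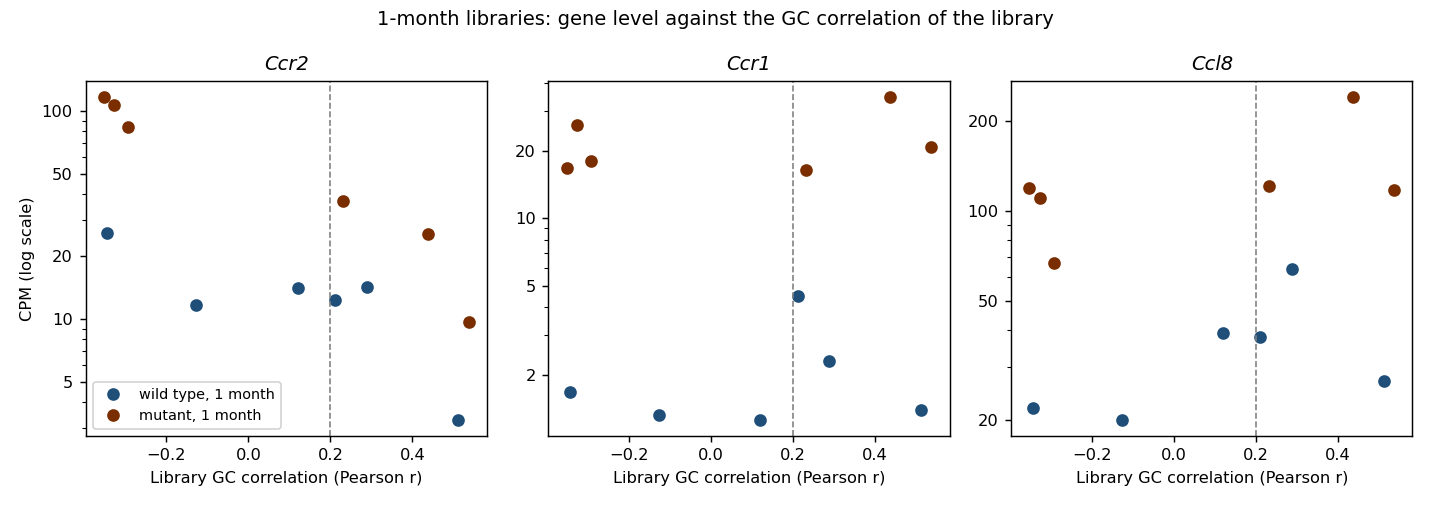
Levels of Ccr2, Ccr1 and Ccl8 in the 12 libraries of 1 month, in CPM on a log axis, against the GC correlation of each library, with the dashed line at 0.2. The 3 mutant libraries right of the line have the lowest mutant Ccr2 values, 9.68 to 37.1 CPM, and for Ccr1 the mutant libraries stand above the wild types on both sides.

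Whether the genotype difference changed between the times was tested as the interaction of genotype and time. It was smaller at 1 month for 2 of the 8 genes, Ccl2 and Ccl7, and 4.09% of all genes tested were called lower in this way. Ccl2 differed by -2.64 ± 0.46 on the log2 scale (edgeR adjusted p = 0.00049). Ccl7 differed by -2.57 ± 0.39 (edgeR adjusted p = 0.000118). Ccl2 went from 29.2-fold over wild type at day 5 to 4.67-fold at 1 month, and its neighbour Ccl7 from 23.5-fold to 3.95-fold. Taken against the 1-month libraries with a GC correlation above 0.2 alone, the values were -3.22 for Ccl2 and -3.05 for Ccl7 (edgeR adjusted p = 0.000794 and 0.000245). Against those below they were -2.24 and -2.19 (edgeR adjusted p = 0.0187 and 0.00336), so both calls held on both sides. Ccl12 differed by -1.07 ± 0.42 (edgeR adjusted p = 0.131) and Ccr1 by -1.35 ± 0.60 (edgeR adjusted p = 0.194). Neither passed the threshold. For Ccl4 the value was -1.50 ± 1.142, for Ccl3 -0.39 ± 1.00, for Ccl8 -0.24 ± 0.42 and for Ccr2 0.33 ± 0.63, with edgeR adjusted p from 0.559 to 0.927. The standard errors were largest for Ccl3 and Ccl4, the genes with the fewest counts.

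**Figure D3:**
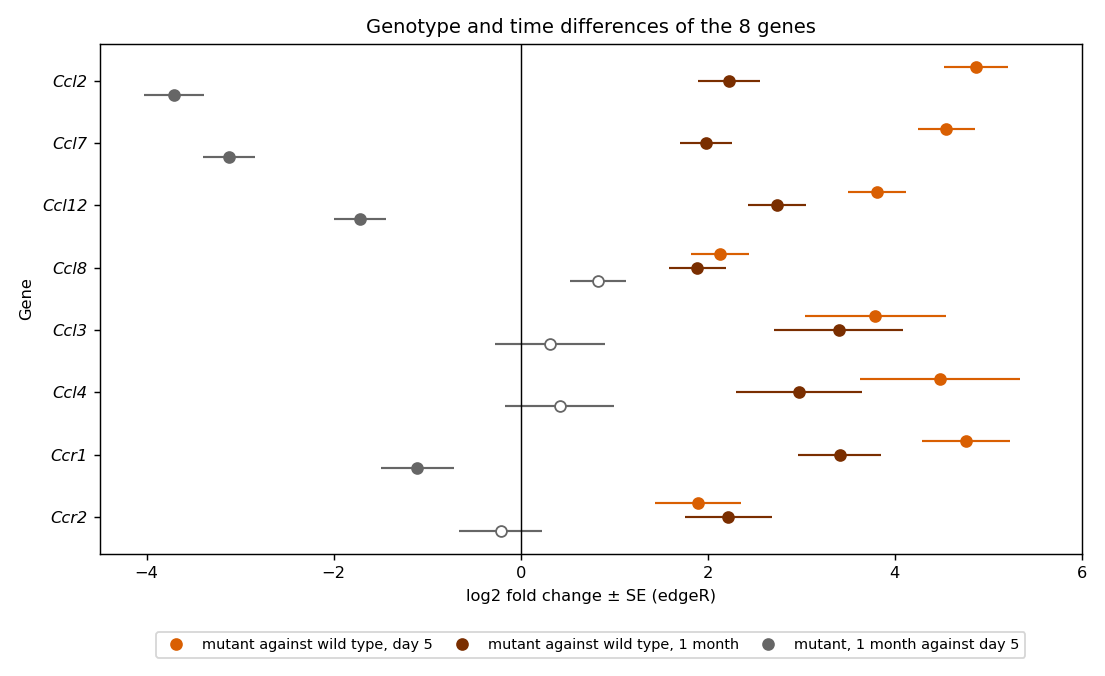
Log2 fold changes with standard errors for the 8 genes: mutant against wild type at day 5, the same at 1 month, and mutants at 1 month against mutants at day 5. Filled points passed the edgeR test and open points did not. The first 2 comparisons are filled for all 8 genes, the last one for Ccl2, Ccl7, Ccl12 and Ccr1.

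Within the mutants, Ccl2 was 13.1-fold lower at 1 month than at day 5 (log2 fold change -3.71 ± 0.32, edgeR adjusted p = 1.39e-08). Ccl7 was 8.69-fold lower (-3.12 ± 0.28, edgeR adjusted p = 2.12e-08). For both genes all 1-month libraries lay below all day-5 libraries, a separation seen in 3.56% of all genes. Ccl12 was 3.29-fold lower (-1.72 ± 0.28, edgeR adjusted p = 6.25e-05), with overlapping libraries. Ccr1 was 2.15-fold lower (-1.10 ± 0.39, edgeR adjusted p = 0.0495), just inside the threshold, with overlap. The Ccr1 call was lost in 19 of the 24 fits that left out 1 library (adjusted p up to 0.136). In all, 4 of the 8 genes were called lower, against 8.23% of all genes. Ccl8 moved in the other direction, by 0.82 ± 0.30 (edgeR adjusted p = 0.0534), and did not pass. It was called in 8 of the 24 fits that left out 1 library (edgeR adjusted p 0.0108 to 0.0486), and at 1.17 (edgeR adjusted p = 0.00349) against the 1-month libraries above a GC correlation of 0.2, but not against those below (0.46, edgeR adjusted p = 0.247). Ccl3, Ccl4 and Ccr2 differed by 0.32 ± 0.59, 0.42 ± 0.59 and -0.21 ± 0.44, with edgeR adjusted p from 0.659 to 0.775. For Ccr2 the value was -1.58 (edgeR adjusted p = 0.00425) against the 1-month libraries with a GC correlation above 0.2 and 0.51 (edgeR adjusted p = 0.189) against those below.

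In wild types 1 of the 8 genes differed between the times. Ccl8 was 2.09-fold higher at 1 month (1.06 ± 0.30, edgeR adjusted p = 0.0282), with no overlap between the times. Called higher were 6.28% of all genes, and 2.9% were higher without overlap. Ccl2 was lower by a value that did not pass (-1.07 ± 0.34, edgeR adjusted p = 0.0521). It was called lower in 4 of the 24 fits that left out 1 library and in 4 of 14 other settings. Among these were DESeq2 (adjusted p = 0.0230), voom (adjusted p = 0.0230) and edgeR with only the libraries compared (adjusted p = 0.0270). The other 6 genes had edgeR adjusted p from 0.211 to 0.742. The Ccl8 call was lost in 7 of the 24 fits that left out 1 library (edgeR adjusted p 0.0529 to 0.106): replicates 1, 2, 4 or 5 of wild type at day 5, or 3, 4 or 5 of wild type at 1 month. It was also lost with the replicate block (edgeR adjusted p = 0.0694) and with the library GC correlation as a covariate (0.75, edgeR adjusted p = 0.0695). Against the wild types of 1 month below a GC correlation of 0.2 the value was 0.72 (edgeR adjusted p = 0.189), and against those above it was 1.39 (edgeR adjusted p = 0.00221).

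Set per kilobase of transcript, the genes can be compared with each other. Summed over the 6 ligands, the level was 42.3 ± 5.21 CPM per kb (SD, n = 6) in wild type and 356 ± 109 in mutants at day 5, and 75.1 ± 33.3 and 290.4 ± 117 at 1 month. The make-up of that sum differed between the mutant groups. Ccl8 made up 77.3 ± 4.61% of it in wild type at day 5 and 39.8 ± 9.67% in mutants. At 1 month its share was 90.3 ± 3.31% in wild type and 85.8 ± 5.82% in mutants. Its share in single mutant libraries ran from 31.1% to 56.8% at day 5 and from 75.1% to 90.8% at 1 month, without overlap. Ccl7 took 33.4 ± 5.91% in mutants at day 5 and 5.45 ± 3.72% at 1 month, and Ccl2 took 16.2 ± 3.55% and 1.82 ± 1.44%. Ccl12 held 8.51 ± 1.22% and 3.40 ± 0.857%. Thus by the group means the ligand sum in mutant ears was mostly CCR2 ligands at day 5 and mostly Ccl8 at 1 month. By mean share Ccl8 was still the largest single ligand in mutants at day 5, and with 56.8% it was most of the sum in the highest library. Ccl7 stood above Ccl8 in replicates 3 (95.8 against 88.9 CPM per kb), 4 (158 against 128) and 5 (147 against 130) of that group.

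**Figure D4:**
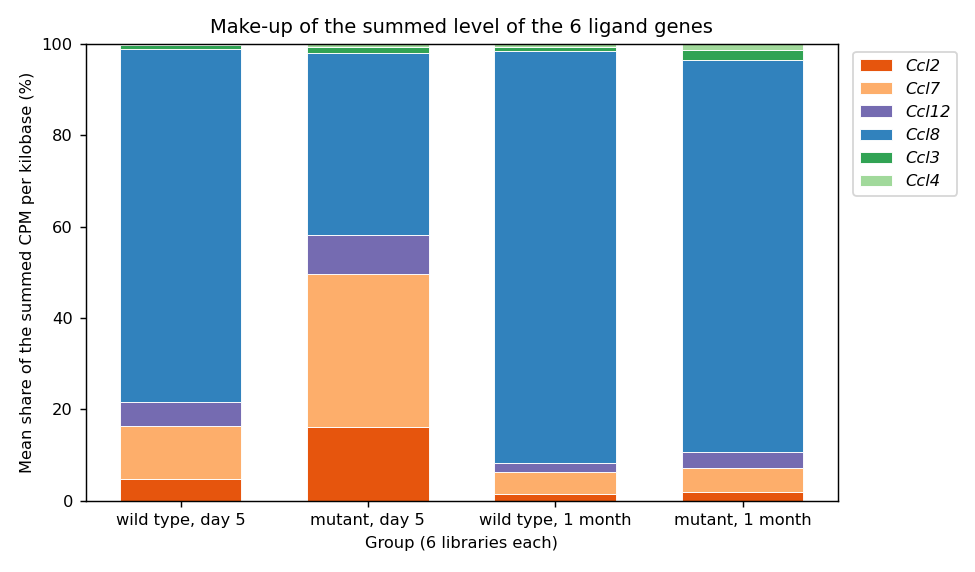
Mean share of each of the 6 ligands in their summed level (CPM per kb of transcript, in percent), by group, as stacked bars from 0 to 100. Ccl8 takes 77.3% and 90.3% in wild type at day 5 and 1 month, 39.8% in mutants at day 5 and 85.8% in mutants at 1 month.

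The 2 receptors summed to 3.54 ± 0.580 CPM per kb in wild type and 27.6 ± 13.8 in mutants at day 5, and to 2.74 ± 1.16 and 17.2 ± 6.43 at 1 month. In wild types Ccr2 stood above Ccr1, at 2.92 against 0.616 CPM per kb at day 5. By the group means of mutants at day 5 the order was the other way, with 10.9 for Ccr2 and 16.8 for Ccr1. Replicates 1 and 3 of that group had Ccr2 above. In mutants at 1 month Ccr2 was again above by the group means, at 9.36 against 7.80. Single libraries differed, with Ccr1 above in replicates 1 (12.2 against 3.78), 2 (5.81 against 5.49) and 6 (7.35 against 1.43). These were the mutant libraries with a GC correlation above 0.2. The order at day 5 depends on the length taken for Ccr2. Its mean in mutants at day 5 was 10.9 CPM per kb with all exons (6760 bases). With the lengths of its single transcripts it was 12.8 (5728 bases), 20.9 (3515 bases), 24.5 (2999 bases) and 32.4 (2265 bases).

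The other genes of the pathway gave a mixed picture. Of 19 further chemokines, chemokine receptors and colony-stimulating factors, 12 were higher and 2 lower at day 5 (median log2 fold change 1.28), and 9 were higher and 5 lower at 1 month (0.52). Among all genes tested, 20.2% were called lower at day 5 and 21.5% at 1 month. Csf2, which encodes the growth factor GM-CSF, held only 0 to 0.174 CPM in wild type at day 5. It was higher in mutants by 5.14 ± 0.42 on the log2 scale (edgeR adjusted p = 3.41e-09), a size that rests on that low level. Csf2rb, the shared signalling chain of its receptor, was higher by 2.55 ± 0.21 at day 5 and 2.09 ± 0.21 at 1 month (edgeR adjusted p = 4.85e-09 and 3.22e-08), and Csf2ra, the ligand-binding chain, by 1.24 ± 0.15 at 1 month (edgeR adjusted p = 4.87e-07). Ccl6, a CC chemokine of myeloid cells, was higher by 2.61 ± 0.24 at day 5 (edgeR adjusted p = 2.01e-08).

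The change of the genotype difference between the times was called negative for 6 of the 19 genes and positive for none. Among them were Ccl6 (-1.85 ± 0.33, edgeR adjusted p = 0.000613), Ccl11 (-1.64 ± 0.32, edgeR adjusted p = 0.00154) and Ccl9 (-1.73 ± 0.35, edgeR adjusted p = 0.00203). A negative value means that mutants stood lower against wild types at 1 month than at day 5. The difference can still be larger in size at 1 month, as for Ackr2. Ackr2, a decoy receptor that takes up inflammatory CC chemokines, including CCL2, had 11.6 CPM at the median in wild type and 14.1 in mutants at day 5 (0.21 ± 0.15, edgeR adjusted p = 0.267). At 1 month it had 11.1, 15.5 and 18.3 CPM (lowest, median and highest) in wild type and 5.08, 6.48 and 8.90 CPM in mutants. It was thus lower in every mutant library at 1 month (-1.18 ± 0.15, edgeR adjusted p = 8.02e-07), and the change between the times was -1.40 ± 0.21 (edgeR adjusted p = 0.000117). Ackr1, the chemokine-binding receptor of venules, was higher at day 5 (0.65 ± 0.16, edgeR adjusted p = 0.0018) and did not pass at 1 month (0.21 ± 0.16, edgeR adjusted p = 0.278). Ackr4, the scavenger of homing chemokines, was lower at both times, by -1.23 ± 0.24 at day 5 and -2.15 ± 0.25 at 1 month (edgeR adjusted p = 0.00028 and 2.4e-07). Its change between the times did not pass (edgeR adjusted p = 0.1001).

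Markers of monocytes and macrophages were higher in mutants too, with different courses over time. Of 14 monocyte and macrophage markers, 13 were called higher at day 5 and 14 at 1 month, with medians of 1.90 and 1.36 on the log2 scale. Summed, they gave 554 to 684 CPM per wild-type library and 831 to 2213 CPM per mutant library at day 5. The sums at 1 month were 490 to 994 CPM and 1143 to 1916 CPM. Ly6c2, a marker of inflammatory monocytes, was higher by 4.07 ± 0.44 at day 5 (edgeR adjusted p = 1.92e-07), and that difference was smaller at 1 month (-1.91 ± 0.59, edgeR adjusted p = 0.0425). It was 1 of 3 markers of the 14 whose difference became smaller, with Chil3 and Cd163; the other 11 were not called. Between day 5 and 1 month, mutants had 5 of the 14 lower and 4 higher, the 4 being Csf1r, Adgre1, Lyz2 and Ms4a7. Chil3, a secreted protein of monocytes and macrophages, was higher by 9.11 ± 0.65 at day 5 and 4.05 ± 0.53 at 1 month (edgeR adjusted p = 3.92e-10 and 1.34e-06). Its wild-type libraries held only 0 to 0.247 CPM at day 5 and 0.117 to 0.581 CPM at 1 month. The size of both values rests on these low levels. Fcgr1, a macrophage Fc receptor, was higher by 3.00 ± 0.36 and 2.55 ± 0.36 (edgeR adjusted p = 7.42e-07 and 2.99e-06). In mutants at day 5, Ly6c2 also ranged from 4.96 to 33.7 CPM.

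Markers of other cell types moved as well. Of 10 neutrophil markers 7 passed the filter; all 7 were higher at day 5 and 6 at 1 month. All 10 together summed to 17.7 to 23.5 CPM per wild-type library and 1942 to 8775 CPM per mutant library at day 5. The sums at 1 month were 29.6 to 77.2 CPM and 3228 to 7139 CPM. Little of the mutant sums came from Cxcr2, Retnlg and Ly6g. At day 5 these genes gave 85.2, 14.7 and 1.84 CPM of a mean mutant sum of 5010 CPM. At 1 month they gave 37.3, 1.86 and 0.156 CPM of 4696 CPM. The mutant sums thus rest mostly on the other markers of the list. The defining neutrophil gene Ly6g was at 0 in all wild-type libraries of day 5 and at 0.356 to 3.32 CPM in the mutants. At 1 month it was at 0 to 0.364 CPM in the mutants. Within the mutants 3 of the 7 tested neutrophil markers were lower at 1 month than at day 5, Cxcr2 (-1.19 on the log2 scale), Retnlg (-2.98) and Mmp8 (-2.67). S100a8 (0.044) and S100a9 (-0.15), which keratinocytes also express in inflamed skin, did not pass. Mast cell markers were mixed at day 5, with 1 of 8 higher and 2 lower, and 5 of 8 were higher at 1 month, with a summed level of 258 to 636 CPM in mutants and 120 to 317 CPM in wild type. Dendritic cell markers were higher for 3 of 7 at day 5 and 6 of 7 at 1 month. T and NK cell markers were lower for 4 of 7 at both times, and higher for 1 at day 5 (Gzmb) and 2 at 1 month (Gzmb and Trbc2). Fibroblast markers were lower for 3 of 6 and higher for 1 (Pdgfra) at day 5, and higher for 5 of 6 and lower for 1 (Dcn) at 1 month. Keratinocyte markers were higher for 3 of 6 at day 5, and higher for 4 of 6 and lower for 1 at 1 month. Endothelial markers moved least at day 5, with 1 of 6 higher (median log2 fold change 0.0053), and 4 of 6 were higher at 1 month. The part of these cell types in the levels of the 8 genes was not tested.

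Likeness between genes was described by Pearson's r of log2 CPM after each group mean was subtracted, over the 24 libraries, which share depth and composition across genes. Closest to Ccl2 was Ccl7 (0.88), at 0.82 among the 12 libraries of day 5 and 0.92 among the 12 of 1 month. Il6, which encodes an inflammatory cytokine, followed with 0.81, then Sept11 (0.79), Ptprj (0.78) and Adamts9 (0.78). Closest to Ccr2 were the interferon-induced gene Ifi209, Ptprc (which encodes the leukocyte antigen CD45) and the RNA sensor gene Tlr8, each with 0.97, and St8sia4 and Cd84 with 0.96. The transcripts of these 5 genes had a GC content of 36.1% to 40.1%, as low as that of Ccr2. Ccr1 and Ccr2 went together among the libraries of day 5 (0.91) and not among those of 1 month (-0.02). Among ligands, Ccl3 with Ccl4 gave 0.67 and Ccl2 with Ccl8 gave -0.02.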

How the data were processed

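PolyA RNA of 24 whole-ear samples was read single-end. The authors deposited expected counts per gene, estimated with RSEM 1.3.0 and STAR 2.5.2 on GRCm38, per the submitters' processing notes, which also name DESeq2 1.14.1; the annotation release and the strand setting are not given in the sources used here. Rounding to integers preceded the tests, since 6.71% of the deposited values were fractional. Symbols came from GENCODE M21 (51633 of 51912 identifiers matched).

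Genes were filtered with filterByExpr, scaled by TMM and fitted with edgeR 4.0.16 (robust quasi-likelihood, R 4.3.3) over all 24 libraries with 1 coefficient per group, and p-values were adjusted by Benjamini-Hochberg over 17287 genes. CPM are TMM-scaled. Levels per kb use the summed exon length. The alternatives were DESeq2 1.42.0, voom in limma 3.58.1, other scalings and filters, a replicate block, each library left out and, chosen after seeing the data, 4 treatments of library GC. The 8 genes and the lists were chosen with earlier results of these data known. Named were the 8 genes, up to 4 genes per list and comparison by smallest adjusted p, Ackr1 and Ackr2, and the 5 genes most like Ccl2 and Ccr2 by correlation, among genes with a mean of at least 1 CPM; a gene of this rule is not reported here. Ranges for replicates 1 and 3 and for Ly6c2, and the markers named in the paragraph on other cell types or as higher over time in mutants, were picked after their values were seen. On simulated counts for the day 5 comparison (17070 genes), the test recovered 18 of 67 genes altered 1.5-fold, 45 of 67 altered 2-fold and 56 of 66 altered 4-fold. No pair of replicates agreed within sampling noise (smallest chi-square per degree of freedom 4.86 over 60 pairs). Same-numbered samples did not deviate together in every pair of groups (correlations -0.733 to 0.394), so the numbers were not taken to pair samples.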

Additional observations from a re-analysis of the deposited data

Results flagged for a closer look

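In 4 of the 32 combinations of gene and group, the highest library stood apart from the other 5 by more than Dixon's critical gap for 6 samples; chance gives this for about 1 in 20 groups. In the wild types of 1 month it was replicate 4 for 3 genes, at 1.94 CPM for Ccl3, 1.21 CPM for Ccl4 and 4.50 CPM for Ccr1. In the mutants of 1 month it was replicate 1 for Ccl8, at 240.1 CPM.

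The genotype difference changed between the times for Ccl2 by -2.64 and for Ccl7 by -2.57 on the log2 scale, by the interaction test.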

How the results depend on the processing

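Under every alternative run, including each library left out, all 8 genes stayed called higher in mutants at 1 month, and 7 or 8 at day 5; the 7 came from fitting only the libraries compared, where Ccl4 did not pass the filter. The smaller genotype difference at 1 month was called for 2 genes in all settings except voom (4). In mutants 3 to 5 genes were called between the times (4 as reported, 3 to 4 with a library left out); the Ccr1 call was lost with RLE scaling, no filter, only the libraries compared, the replicate block (adjusted p = 0.157) and without the GC-split libraries, and Ccl8 was called with DESeq2, RLE scaling and total counts (adjusted p = 0.0282, 0.0495 and 0.0346). In wild types the count of 1 became 2 with DESeq2, 3 with voom, 2 with only the libraries compared, 0 with the replicate block, 0 without the 6 libraries with a GC correlation above 0.2, 3 without the 6 of 1 month below it, 0 with the GC correlation as a covariate, and 0 to 2 with a library left out; the cause was not tested. Voom moved the called values of Ccl2, Ccl3, Ccl7 and Ccr2 at 1 month by over 1.5-fold, to 2.85, 2.78, 2.58 and 2.88, and among libraries above 0.2 Ccl2 was 1.63. With the replicate block, Ccl8 in wild types was 1.05 (adjusted p = 0.0694). The replicate block changed no other call than these of Ccl8 in wild types and Ccr1 in mutants.

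Values that changed sign were all uncalled in the reported fit. For the change of the genotype difference, Ccl3 became 0.20 with the replicate block, Ccl3 and Ccl4 became 1.11 and 0.26 without the 6 libraries above 0.2, and Ccr2 became -0.61 without the 6 below and -0.029 with the covariate; leaving out single libraries gave -0.77 to 0.93 for Ccl3 and -0.51 to 0.021 for Ccl8. In wild types, without the 6 above 0.2, Ccl3, Ccl4 and Ccr1 became -1.18, -0.40 and -0.26, and single libraries gave -0.61 to 1.12 for Ccl3 and -0.13 to 0.40 for Ccr1. In mutants, Ccl3, Ccl4 and Ccr2 became -0.28, -0.35 and 0.14 with voom, -0.10, -0.12 and 0.26 without the 3 libraries above 0.4, and -0.070, -0.15 and 0.51 without the 6 above 0.2; with the covariate Ccl3 and Ccl4 became -0.029 and -0.057, and single libraries gave -0.46 to 0.042 for Ccr2. The cause was not tested. Depth limits Ccl3 and Ccl4 most, which had few counts in wild types.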
